A study of Mus musculus with 868 samples.

Results

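The xenobiotic cytochrome P450 genes described here are 9 mouse genes that were chosen by symbol, with earlier results of these data known: Cyp3a11, Cyp3a13, Cyp3a25, Cyp2b10, Cyp2c29, Cyp2e1, Cyp1a1, Cyp1a2 and Cyp2a5. All 9 symbols occurred once in each of 24 tissue count tables, which list 24421 gene symbols for 868 libraries of C57BL/6N mice. The libraries were made from flash-frozen tissue with a 3′ mRNA-seq kit, which reads the 3′ end of polyadenylated transcripts, and fall into 18 groups in every tissue. Each group had 2 libraries per tissue, apart from 4 for Asenapine brain and 4 for Sofosbuvir jejunum. The drug groups were APAP (acetaminophen, an analgesic, collected at 2 hours), Sofosbuvir (an antiviral), and Alendronate and Risedronate (bisphosphonates). Antipsychotics were Asenapine, Lurasidone, Olanzapine, Aripiprazole and Clozapine. The others were Cisplatin (a platinum cytotoxic), Dox (2 mg/mL, named no further in the labels), EMPA (oral, for 2 weeks), Lenalidomide, Repatha and Teriparatide. The control groups were Sucrose (5%), CMCTween (0.5% CMC with 0.25% Tween80) and Untreated. Sex and age, and most doses and times, are not in the labels used here, and nothing says that the libraries of a group came from separate animals. P values here therefore measure the spread between libraries, which may be technical.

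Cytochrome P450 enzymes are haem proteins of the endoplasmic reticulum that oxidise drugs, toxins and endogenous lipids with electrons passed on by the reductase Por. In liver, many of their genes are controlled by xenobiotic-sensing receptors: the pregnane X receptor (Nr1i2) acts on the CYP3A genes, the constitutive androstane receptor (Nr1i3) on Cyp2b10 and Cyp2c29, and the aryl hydrocarbon receptor (Ahr) on the CYP1A pair. Inflammation is known to lower many hepatic P450 transcripts, and Cyp2e1 and Cyp1a2 are known for oxidising acetaminophen to its reactive quinone imine, with Cyp3a11 and Cyp2a5 among the other enzymes studied in that reaction in mice. In the liver lobule, Cyp2e1, Cyp1a2 and Cyp2c29 are typical of hepatocytes around the central vein.

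The sequences before the start sites of 6 genes are shown because, in liver after APAP or cisplatin, the 3 CYP3A genes did not move together while Cyp2c29 and Cyp1a2 did, and because Cyp1a2 and Cyp1a1 differ in level although they are neighbours on chromosome 9. Each line gives the 250 bases before the RefSeq start site (GRCm38.p6), 5′ to 3′ on the gene's own strand. Capitals mark any match, on either strand, to GCGTG (the core of the aryl hydrocarbon receptor element), AGGTCA (the repeat unit of nuclear receptor elements) and its variant AGTTCA, TTATGTAA (the element of the PAR bZip factors), CCAAT (the box of the factor NF-Y), TATAAA (the TATA box) and GTTAAT (part of the HNF1 element), and no matches overlapped. The windows are Cyp3a11 (chr5:145879855-145880104, minus strand), Cyp3a13 (chr5:137921620-137921869, minus strand), Cyp3a25 (chr5:146009619-146009868, minus strand), Cyp2c29 (chr19:39286835-39287084, plus strand), Cyp1a1 (chr9:57697363-57697612, plus strand) and Cyp1a2 (chr9:57683656-57683905, minus strand).
Cyp3a11: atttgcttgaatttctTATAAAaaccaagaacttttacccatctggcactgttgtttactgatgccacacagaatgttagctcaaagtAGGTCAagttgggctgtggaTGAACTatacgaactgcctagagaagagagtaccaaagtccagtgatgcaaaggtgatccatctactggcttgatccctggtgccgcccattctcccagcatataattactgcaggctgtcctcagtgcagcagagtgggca
Cyp3a13: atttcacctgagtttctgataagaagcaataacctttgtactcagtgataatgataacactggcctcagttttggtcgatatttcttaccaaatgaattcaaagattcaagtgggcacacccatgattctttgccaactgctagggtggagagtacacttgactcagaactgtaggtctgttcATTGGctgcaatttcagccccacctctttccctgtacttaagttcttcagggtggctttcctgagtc
Cyp3a25: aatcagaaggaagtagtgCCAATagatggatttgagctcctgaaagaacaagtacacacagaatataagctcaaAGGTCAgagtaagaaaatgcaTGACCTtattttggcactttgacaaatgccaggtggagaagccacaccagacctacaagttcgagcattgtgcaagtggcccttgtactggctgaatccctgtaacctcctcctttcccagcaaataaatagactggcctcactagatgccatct
Cyp2c29: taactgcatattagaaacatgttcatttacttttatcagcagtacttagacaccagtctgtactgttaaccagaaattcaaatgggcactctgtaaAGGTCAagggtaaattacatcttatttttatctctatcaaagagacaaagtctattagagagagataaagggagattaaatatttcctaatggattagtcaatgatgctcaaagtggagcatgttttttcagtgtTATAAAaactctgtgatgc
Cyp1a1: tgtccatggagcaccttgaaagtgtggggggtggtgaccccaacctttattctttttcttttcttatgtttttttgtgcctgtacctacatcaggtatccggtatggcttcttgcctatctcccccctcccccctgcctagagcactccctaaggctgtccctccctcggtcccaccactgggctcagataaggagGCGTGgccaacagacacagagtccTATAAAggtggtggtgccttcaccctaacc
Cyp1a2: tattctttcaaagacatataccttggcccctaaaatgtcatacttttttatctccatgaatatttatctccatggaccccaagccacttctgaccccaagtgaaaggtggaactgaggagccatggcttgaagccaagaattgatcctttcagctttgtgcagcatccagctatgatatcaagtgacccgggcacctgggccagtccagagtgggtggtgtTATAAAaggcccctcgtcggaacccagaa

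AGGTCA lay 162 bases before the start of Cyp3a11, with AGTTCA 142 bases before it, and at 176 and 155 bases before the start of Cyp3a25 and 154 bases before that of Cyp2c29 (position of the leftmost base). The Cyp3a13 window held CCAAT but neither AGGTCA nor its variant. GCGTG lay 54 bases before the start of Cyp1a1 and was not in the Cyp1a2 window, and TATAAA stood 30 and 29 bases before the starts of that pair. TATAAA also occurred 234 bases before the start of Cyp3a11 and 19 bases before that of Cyp2c29. Among 27025 mouse promoter windows of the same length, 13.8% held AGGTCA, 11.9% AGTTCA, 34.5% CCAAT, 28.2% GCGTG, 12.97% TATAAA, 6.52% GTTAAT and 0.862% TTATGTAA. These matches are letters only: no binding was measured. The other members, for which no sequence is shown, are the genes Cyp2b10 (chr7:25897620-25926624, plus strand), Cyp2e1 (chr7:140763739-140774987, plus strand) and Cyp2a5 (chr7:26835305-26843548, plus strand) in the GENCODE annotation of mm10.

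Library totals ran between 451154 and 12811780 counts (median 877592). Untreated libraries had 2875950 counts or more, and the others 451154 to 3685250. Levels are CPM (counts scaled to the library total), with no length correction, since reads of a 3′ library come from the ends of transcripts. In the expression values, though not in the labels, libraries fall into 3 sets: A (APAP, Sofosbuvir, Sucrose and Untreated), B (Alendronate, Asenapine, Lurasidone, Olanzapine and Risedronate) and C (the other drugs and CMCTween). In liver, for instance, Cyp1a2 stood at 1145 and 1038 CPM in CMCTween and 362 and 345 CPM in Untreated libraries, so treatments were compared only within a set. APAP and Sofosbuvir were set against the mean of Sucrose and Untreated, Sucrose against Untreated, each drug of set B against the mean of its other 4 drugs, and each drug of set C against CMCTween. Jejunum libraries of one group stood far apart: Cyp3a11 was at 0, 2.70002, 174 and 256 CPM in the 4 Sofosbuvir libraries and at 52.8 and 1.57 CPM in the Untreated libraries, and the summed level of 8 enterocyte markers spanned 149.7 to 11042 CPM and 335 to 3197 CPM there. In bulk tissue, fewer cells of a type and less RNA per cell cannot be told apart. Some 3′ ends are shared with other transcripts: of 451 windows of 50 bases in the last 500 bases, 18.8% of those of Cyp2e1 also occur in another gene (mostly Fcho2), 12.4% of those of Cyp2a5 (Cyp2a4), 7.54% of those of Cyp2b10 (Cyp2b13) and 3.10% of those of Cyp3a25 (Cyp3a59), so reads may be divided between those genes.

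In untreated mice the liver held the highest level of 7 of the 9 genes, and together the 9 took 1.06% and 1.09% of all counts in the Untreated liver libraries. Cyp2e1, the ethanol- and acetone-metabolising P450, was the most abundant: it stood at 8035 and 8191 CPM in liver, 2266 and 2565 CPM in WAT, 1539 and 1672 CPM in kidney, 1265 and 1431 CPM in aorta and 442 and 555 CPM in thyroid gland. It was the only one of the 9 at 10 CPM or more in all 24 tissues, and of the 23 neighbouring pairs in its order of tissues 11 overlapped. As given above, 18.8% of the windows at its 3′ end also occur in another gene, and the part of this in its low levels was not tested. Such levels also differed between library sets: in bone marrow Cyp2e1 averaged 174 CPM in Untreated and 39.3 CPM in CMCTween libraries. Pancreas was the lowest by library totals (78.6 and 60.6 CPM), but TMM scaling put it at rank 5 with 381 CPM and left spleen the lowest at 96.8 CPM. Liver did not overlap WAT, and no kidney library reached the lower WAT library. The steroid- and drug-oxidising CYP3A genes differed in spread over tissues. Cyp3a11, the main drug-metabolising CYP3A enzyme of mouse liver, was at 778 and 873 CPM in liver and 52.8 and 1.57 CPM in jejunum, and under 1 CPM on average in the other 22 tissues. Cyp3a25 had the same order, at 255 and 262 CPM in liver and 44.6 and 2.83 CPM in jejunum. Cyp3a13 was spread along the gut: it was at 137 and 159 CPM in liver, 167 and 20.1 CPM in jejunum, 69.2 and 66.99 CPM in colon, 64.9 and 31.3 CPM in ileum and 31.4 and 27.4 CPM in stomach. Its libraries of liver and jejunum overlapped, so their order is not settled.

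**Figure D1:**
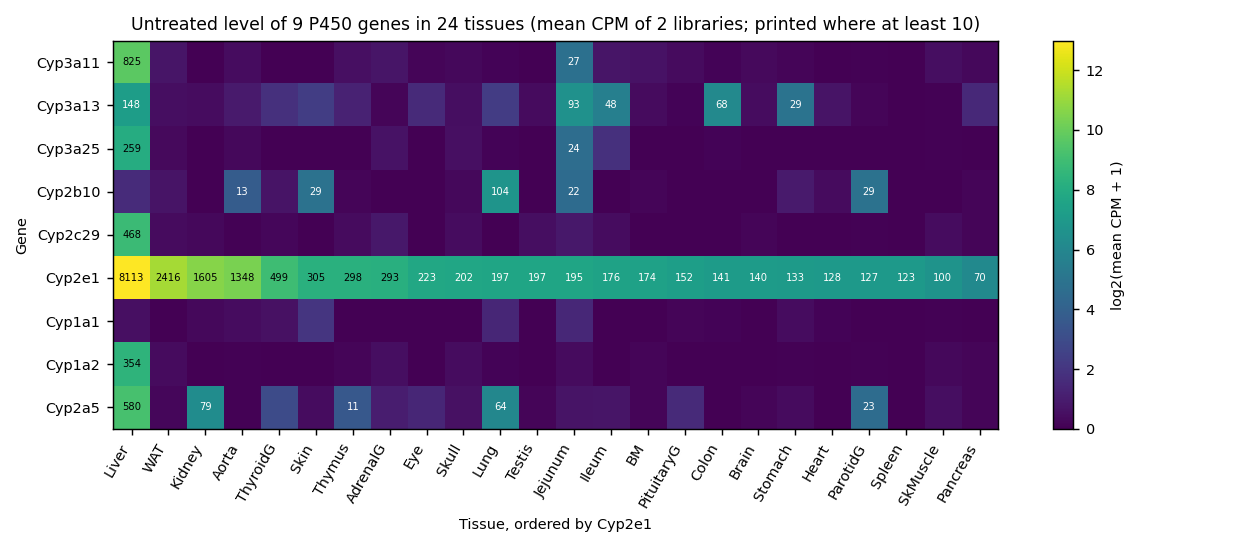
Mean level of the 9 genes (rows) in 24 tissues (columns, ordered by Cyp2e1), as log2(CPM + 1) of 2 Untreated libraries, with the mean CPM printed where it is at least 10. Cyp2e1 has a value in every column, Cyp2c29 and Cyp1a2 have one in liver alone, and the highest Cyp2b10 value is in lung.

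Cyp2c29, a CYP2C enzyme, and Cyp1a2, the hepatic CYP1A enzyme that oxidises caffeine and arylamines, reached 1 CPM in no tissue other than liver, where they stood at 444 and 492 CPM and 362 and 345 CPM. Cyp2a5, the coumarin hydroxylase, was at 549 and 611 CPM in liver, 72.6 and 84.5 CPM in kidney, 49.3 and 78.9 CPM in lung, 22.8 and 22.7 CPM in parotid gland and 11.8 and 10.4 CPM in thymus. The kidney and lung libraries of Cyp2a5 overlapped, and liver lay above both. Cyp2b10, the classic phenobarbital-inducible P450, had its highest level outside the liver, at 98.8 and 109 CPM in lung, 28.9 and 29.6 CPM in skin, 27.9 and 30.6 CPM in parotid gland, 41.8 and 3.14 CPM in jejunum, 9.84 and 16.1 CPM in aorta and 1.62 and 2.52 CPM in liver. Lung did not overlap skin, while skin, parotid gland and jejunum overlapped each other. Cyp1a1, the inducible CYP1A enzyme, was lowest: its highest level was 4.14 and 1.81 CPM, in skin, and it had no count in 12 tissues, where 3 counts over both libraries would be 0.184 to 0.441 CPM (a floor that, like every interval here, covers counting error only). The highest tissue was unchanged for all 9 genes when libraries were scaled by TMM factors instead of totals, although Cyp2b10 was then higher in parotid gland (50.4 CPM) than in skin (24.1 CPM).

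In 1 edgeR quasi-likelihood fit of the 48 Untreated libraries, liver lay above all 23 other tissues (adjusted p under 0.05 in each) for Cyp3a11, Cyp3a13, Cyp3a25, Cyp2c29, Cyp2e1, Cyp1a2 and Cyp2a5. For Cyp2b10, 3 tissues lay below liver, 4 above it and 16 did not pass, and Cyp1a1 was too low to test. That gave 164 member contrasts higher in liver, beside 23.4% of all gene contrasts, and 4 lower in liver, beside 29.3%. The smallest tested log2 difference of Cyp2e1 was to WAT, at 2.36 ± 0.16, and that of Cyp3a13 was to jejunum, at 1.54 ± 0.46, even though its libraries overlapped.

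Across the 16 within-set comparisons in 24 tissues, 960 tests of the 9 genes could be made, since a gene was tested only in tissues where it passed a filter on low counts (a minimum count of 10). Of these, 77 passed at an adjusted p under 0.05 (45 up and 32 down), beside 3.07% of all gene tests. APAP had 17 up and 12 down of its 60 tests, and Cisplatin 11 up and 6 down of its 60. In the 16 tissues with an APAP member call, 1.1% to 28.3% of all genes were called for APAP. In the 9 tissues with a Cisplatin member call, 4.19% to 43.8% of all genes were called for Cisplatin. The pooled 3.07% is therefore not the share of these drugs. Sucrose had 2 up and 6 down, Aripiprazole 5 and 1, Asenapine 5 and 1, Sofosbuvir 1 and 4, Clozapine 2 and 0, Dox 0 and 2, and Alendronate and Olanzapine 1 and 0 each. In 4 of the 77 the libraries of the groups overlapped, 21 of the 77 held under every alternative run, and for 12 the refits that leave out a library were not run. A log2 fold change is given below with its standard error.

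In liver at 2 hours after APAP, Cyp3a13 and Cyp2b10 rose and Cyp2c29, Cyp1a2 and Cyp2a5 fell, which is 5 of the 8 members tested, beside 16.5% of all genes. Cyp3a13 was at 377 and 281 CPM in the APAP libraries, against 182 and 177 CPM in Sucrose and 137 and 159 CPM in Untreated libraries. Both APAP libraries lay above all 4 controls, and the log2 fold change was 1.05 ± 0.16, adjusted p = 1.21e-05. Cyp2b10, a target gene of the constitutive androstane receptor, was at 37.6 and 40.8 CPM in the APAP libraries, against 14.6 and 5.67 CPM in Sucrose and 1.62 and 2.52 CPM in Untreated libraries. The APAP libraries were again the highest and the Untreated ones the lowest (3.15 ± 0.47, adjusted p = 3.30e-05). Cyp2a5 fell most: it was at 164 and 119 CPM in the APAP libraries, against 619.7 and 715 CPM in Sucrose and 549 and 611 CPM in Untreated libraries. Neither APAP library reached the lowest control (-2.101 ± 0.36, adjusted p = 3.92e-04). Cyp2c29 was at 294 and 164 CPM in the APAP libraries, against 738 and 661 CPM in Sucrose and 444 and 492 CPM in Untreated libraries. Cyp1a2 was at 157 and 158 CPM in the APAP libraries, against 371 and 339.6 CPM in Sucrose and 362 and 345 CPM in Untreated libraries. Both genes lay below every control, with a log2 fold change of -1.29 ± 0.24, adjusted p = 6.74e-04 for Cyp2c29, and of -1.14 ± 0.22, adjusted p = 7.95e-04 for Cyp1a2. Each of these 5 calls held under every alternative run, leaving out any library included.

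The other 3 tested members did not pass. Cyp2e1, the main APAP-oxidising P450, was at 5269.9 and 5815 CPM in the APAP libraries, against 5562 and 6205 CPM in Sucrose and 8035 and 8191 CPM in Untreated libraries (-0.28 ± 0.201, adjusted p = 0.401), and the APAP libraries overlapped the Sucrose libraries and lay below the Untreated ones. Cyp3a11 was at 1171 and 889 CPM in the APAP libraries, against 1029.7 and 911 CPM in Sucrose and 778 and 873 CPM in Untreated libraries (0.24). Cyp3a25 was at 484 and 431 CPM in the APAP libraries, against 457 and 385 CPM in Sucrose and 255 and 262 CPM in Untreated libraries (0.51). The APAP libraries overlapped the Sucrose libraries for both genes, and the standard errors were 0.27 and 0.20. Cyp1a1 was not tested in liver: both APAP libraries had no count of it.

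Other genes of the P450 system went both ways in the APAP livers, where 16.5% of all genes were called. The list counts that follow stand beside that share. Of 21 other xenobiotic P450 genes tested, 4 fell and none rose (median log2 fold change -0.62, beside -0.02 for all genes): Cyp2c70 (-1.46), Cyp2c44 (-1.33), Cyp2c50 (-0.88) and Cyp2a12 (-0.33). Of 14 P450 genes of other function, 4 rose and 1 fell: the fatty acid hydroxylases Cyp4a14 (4.73) and Cyp4a10 (3.43), the oxysterol hydroxylase Cyp39a1 (2.48) and the steroidogenic Cyp17a1 (2.91) were up, and Cyp51 of cholesterol synthesis (-1.63) was down. Among 5 redox partners, the reductase Por rose (1.14), and Cyb5b (-1.82) and Cyb5r3 (-1.24) fell. Of 14 receptors and factors, 2 rose and 4 fell: Ahr averaged 7.13 CPM in APAP and 19.3 CPM in control livers (-1.36), Foxa2 fell by 1.05, Nr3c1 (the glucocorticoid receptor) by 0.65 and Rxra by 0.55, while Hnf4a (0.59) and Cebpb rose. The pregnane X receptor gene Nr1i2 (0.17) did not pass, and Nr1i3 had too few counts in liver to be tested. Of 18 PXR and CAR target genes other than the members, 4 rose and 5 fell, with the efflux pump Abcc2 (0.56) and Sult1d1 (1.02) up and the carboxylesterase Ces2a (-0.56) and Gstm2 (-1.095) down. Of 24 conjugating enzymes 2 rose and 7 fell, among them the glutathione transferases Gsta3 (-0.96), Gstm1 (-0.72) and Gstt1 (-0.67). Neither of the 2 aryl hydrocarbon receptor battery genes tested passed.

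Markers of the lobule's zones moved with these results, beside the same 16.5% of all genes called. Of 13 pericentral markers, 7 fell and none rose, among them Rgn (-1.77), Lect2 (-1.87), Gulo (-1.51), Rnase4 (-1.09), Glul (-1.08) and Cyp2c50. Their summed level over 15 genes was 2360.2 to 2492 CPM in APAP libraries, against 5228 to 5604 CPM in Sucrose and 5457 to 5541 CPM in Untreated libraries. Of 14 periportal markers 5 rose and none fell, and their sum was 11826 to 13014 CPM, against 7383 to 8252 CPM in Sucrose and 6350.1 to 7300.4 CPM in Untreated libraries. No pericentral marker was at 0. Cyp2c29 and Cyp1a2 moved with the pericentral list and Cyp2e1, itself a pericentral gene, did not pass; the part of zonation in the result was not tested.

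**Figure D2:**
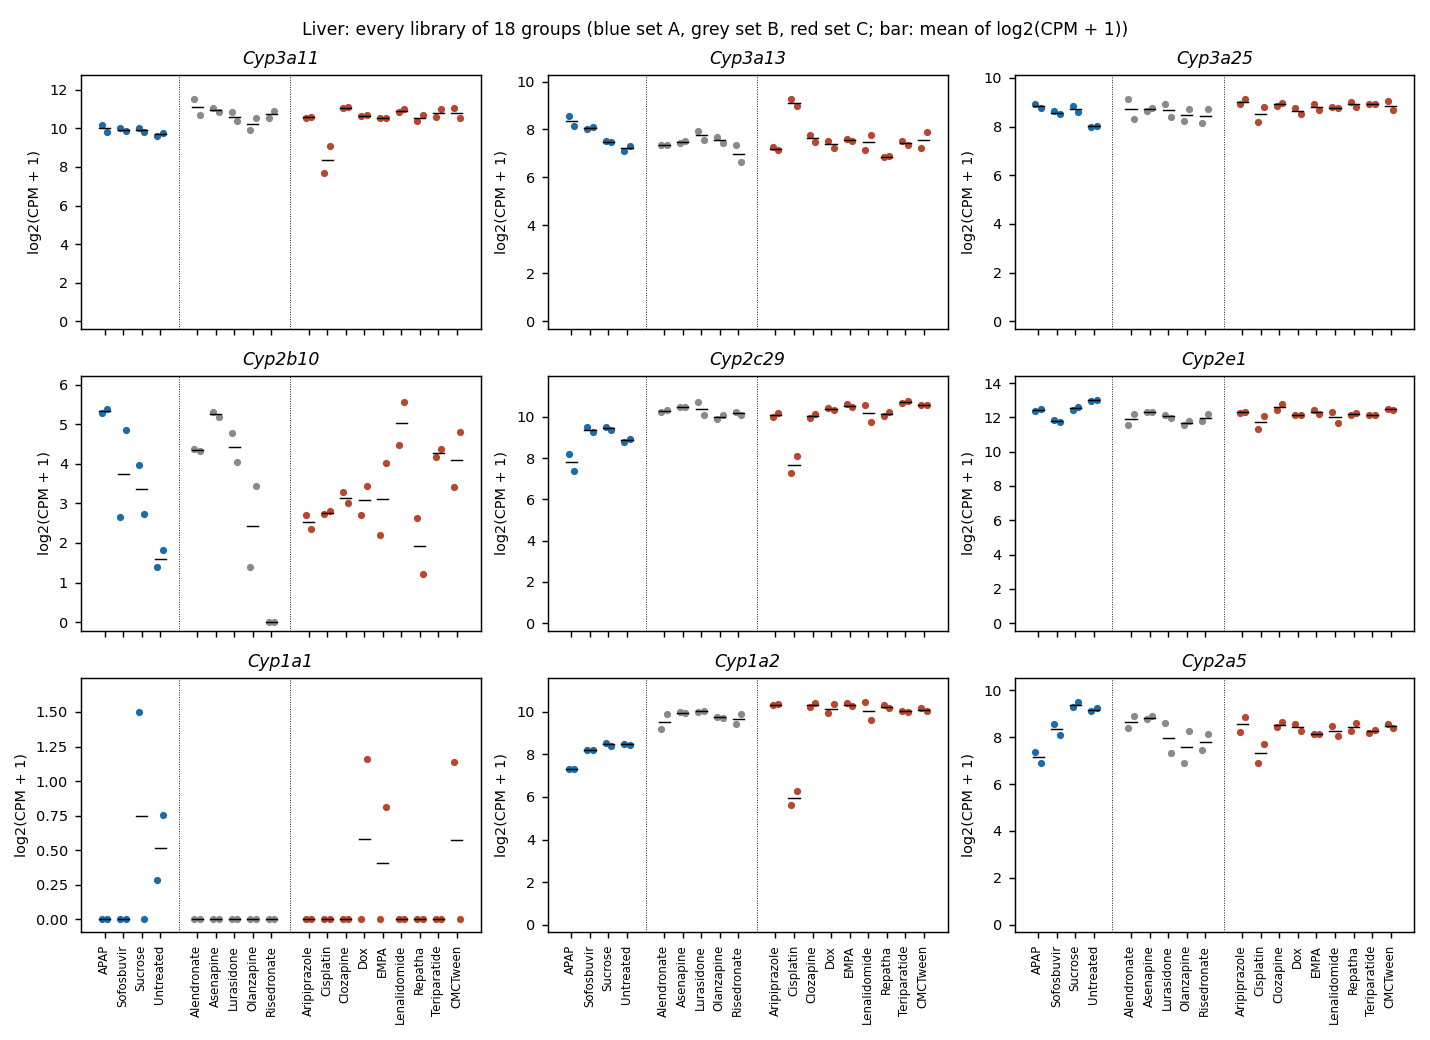
Level of each gene in every liver library as log2(CPM + 1), 1 panel a gene, by treatment, with the bar at the mean and dotted lines between the sets (blue A, grey B, red C). Cisplatin stands apart from CMCTween in Cyp3a11, Cyp3a13, Cyp2c29 and Cyp1a2, APAP from Sucrose and Untreated in Cyp2b10, Cyp2a5 and Cyp1a2, and Cyp2b10 has no count in either Risedronate library.

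Cisplatin split the CYP3A genes of the liver. Cyp3a11 and the constitutive genes Cyp2c29 and Cyp1a2 fell, and Cyp3a13 rose, which is 4 of 8 members tested, beside 9.96% of all genes. Cyp1a2 was at 48.02 and 76.4 CPM in the cisplatin libraries, against 1145 and 1038 CPM in CMCTween libraries. That fall, at -4.04 ± 0.27, adjusted p = 1.87e-09, was the largest in absolute log2 of the member calls in liver. Cyp2c29 was at 153 and 271 CPM in the cisplatin libraries, against 1504 and 1523 CPM in CMCTween libraries (-2.75 ± 0.27, adjusted p = 7.24e-07). Cyp3a11 was at 205 and 542 CPM in the cisplatin libraries, against 2092 and 1459.5 CPM in CMCTween libraries (-2.17 ± 0.34, adjusted p = 2.30e-04). The cisplatin replicates of Cyp3a11 differed from each other widely, and both lay below the CMCTween pair. Cyp3a13 went the other way, at 614 and 497 CPM in the cisplatin libraries, against 151 and 234 CPM in CMCTween libraries (1.61 ± 0.198, adjusted p = 2.94e-07), with no overlap. All 4 calls held under every alternative run.

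Cyp3a25 (289.5 and 451 CPM in cisplatin and 525 and 406 CPM in CMCTween libraries, -0.24), Cyp2e1 (-0.62), Cyp2b10 (-1.54) and Cyp2a5 (-1.02) did not pass. Cyp2a5 was at 117 and 211 CPM in cisplatin libraries and 376 and 335 CPM in CMCTween libraries, without overlap, at an adjusted p of 0.119. The list counts that follow stand beside 9.96% of all genes called in cisplatin livers. Of 18 acute phase genes, which mark the hepatic response to inflammation, 14 rose and none fell (median log2 fold change 1.49, beside -0.01 for all genes): Lcn2 averaged 439 CPM in cisplatin and 2.42 CPM in CMCTween livers (7.54), Saa2 rose by 5.43, Saa1 by 4.3998, Serpina3n by 4.32 and haptoglobin (Hp) by 2.67 on the log2 scale. The cisplatin and CMCTween livers thus differed in an inflammatory list beside the P450 genes; whether the one bears on the other was not tested. Of 14 receptors and factors 1 rose and 3 fell: Nr1h4 was up (0.902) and Nr0b2 (-2.095), Cebpa (-1.47) and Ppara (-1.19) were down, while Nr1i2 (-0.43) did not pass. Of 21 other xenobiotic P450 genes 2 rose and 2 fell, with Cyp2c44 at -3.03 and Cyp2j5 at -0.88, against Cyp2c68 at 0.78 and Cyp2a12 at 0.76. Of 14 P450 genes of other function 4 rose and none fell, among them Cyp51 (3.03) and the bile acid enzyme Cyp7a1 (1.98). Conjugating enzymes went both ways, with 5 up and 6 down of 24: Sult1a1 (1.7005) and Ephx1 (0.97) rose, and Gsta4 (-2.65) and Ugt2b1 (-1.82) fell. The pericentral sum, at 5194 to 6135 CPM in cisplatin and 5227 to 5759 CPM in CMCTween libraries, overlapped.

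The other 4 liver calls were each lost without any of several single libraries. After Sofosbuvir (1.26% of all genes called) Cyp3a13 was at 259 and 273 CPM in Sofosbuvir, against 182 and 177 CPM in Sucrose and 137 and 159 CPM in Untreated libraries (0.74 ± 0.16, adjusted p = 0.0118). Cyp2e1 was at 3646 and 3378 CPM in Sofosbuvir, against 5562 and 6205 CPM in Sucrose and 8035 and 8191 CPM in Untreated libraries (-0.94 ± 0.21, adjusted p = 0.0254). The Cyp3a13 call was lost without Sucrose replicate 1 or 2, Sofosbuvir replicate 1 or 2 or Untreated replicate 2 (adjusted p = 0.0569 to 0.282), or against Sucrose alone (adjusted p = 0.266). The Cyp2e1 call was lost without Sucrose replicate 2, Sofosbuvir replicate 1 or 2 or Untreated replicate 2 or 4 (adjusted p = 0.0603 to 0.2897), or against Sucrose alone (adjusted p = 0.574). Cyp2b10 was called in Sucrose and Asenapine livers too. It was at 14.6 and 5.67 CPM in Sucrose and 1.62 and 2.52 CPM in Untreated libraries (2.18 ± 0.69, adjusted p = 0.0391, 12.6% of all genes called). This result did not hold without Sucrose replicate 1 or Untreated replicate 2 or 4 (adjusted p = 0.0663 to 0.507), or with only its own set in the fit (adjusted p = 0.0613) or adjusted over all comparisons (adjusted p = 0.109). In set B it was at 38.7 and 35.4 CPM in Asenapine libraries, against 19.8 and 19.1 CPM in Alendronate, 26.3 and 15.6 CPM in Lurasidone, 1.64 and 9.92 CPM in Olanzapine and 0 and 0 CPM in Risedronate libraries. Asenapine libraries were the highest (3.205 ± 0.67, adjusted p = 0.00563, 4.43% of all genes called). The call did not pass without Asenapine replicate 3 (adjusted p = 0.0993) or Asenapine replicate 4 (adjusted p = 0.0647), or with a replicate block (adjusted p = 0.123). In nearly all tissues Asenapine libraries are numbered 3 and 4, and those of the other set B drugs mostly 1 and 2. Drug and library number therefore cannot be told apart in the Asenapine comparisons. With no count in either Risedronate library, Cyp2b10 was at least 11.3-fold lower there than in the other set B livers, counting 3 counts over the group as the floor, but the test did not pass (adjusted p = 0.106).

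In the intestine the CYP3A genes were higher after APAP than in the controls, together with markers of the absorptive epithelium. In jejunum 4 members rose and 1 fell of 6 tested, beside 21.5% of all genes. Cyp3a11 was at 1072 and 1245 CPM in the APAP libraries, against 87.9 and 45.8 CPM in Sucrose and 52.8 and 1.57 CPM in Untreated libraries. Both APAP libraries lay far above every control, and the controls themselves differed widely (4.88 ± 1.17, adjusted p = 0.00645). Cyp3a13 was at 1510.3 and 1438 CPM in the APAP libraries, against 412 and 173 CPM in Sucrose and 167 and 20.1 CPM in Untreated libraries (3.28 ± 0.86, adjusted p = 0.01096). Cyp3a25 was at 239.7 and 275 CPM in the APAP libraries, against 48.7 and 24.3 CPM in Sucrose and 44.6 and 2.83 CPM in Untreated libraries (3.24 ± 0.895, adjusted p = 0.0145). Cyp2c29, which in untreated mice was a liver transcript, was at 48.6 and 54.7 CPM in the APAP libraries, against 6.96 and 4.49 CPM in Sucrose and 1.53 and 0 CPM in Untreated libraries (4.63 ± 0.98, adjusted p = 0.00252). These controls lay under the low-count filter, so Cyp2c29 passed it through libraries of other groups, which can include the APAP libraries. Its test in jejunum is therefore not independent of the filter. None of these 4 genes overlapped its controls, yet each call was lost against Sucrose alone (adjusted p = 0.0978 for Cyp3a11, 0.177 for Cyp3a13, 0.131 for Cyp3a25 and 0.0984 for Cyp2c29). The 3 CYP3A calls were also lost when only set A was fitted (adjusted p = 0.0891, 0.111 and 0.116 in the same order). Cyp3a13 was lost without APAP replicate 1 (adjusted p = 0.0632) or Sucrose replicate 2 (adjusted p = 0.06196). Cyp3a25 was lost without APAP replicate 1 or 2 or Sucrose replicate 2 (adjusted p = 0.0683 to 0.0692). Cyp2e1 fell, at 55.1 and 54.7 CPM in the APAP libraries, against 168 and 174 CPM in Sucrose and 207 and 182 CPM in Untreated libraries (-1.598 ± 0.28, adjusted p = 2.60e-04), and this call held under every alternative run.

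The summed level of 8 enterocyte markers, none of them at 0 in any of these groups, was 12117 to 13742 CPM in APAP, 2784 to 7403 CPM in Sucrose and 335 to 3197 CPM in Untreated jejunum, in the same order as the CYP3A genes. Of the 8, 1 passed, the brush border gene Vil1 (1.85). This count and the list counts below stand beside 21.5% of all genes called in APAP jejunum. The part of the enterocyte markers in the result was not tested. The hepatocyte gene Alb, read as a check for liver RNA, was at 0 to 1.08 CPM in APAP, 0 to 1.74 CPM in Sucrose and 0 to 29.3 CPM in Untreated libraries. Of 12 receptors and factors in APAP jejunum 3 rose and none fell, among them the pregnane X receptor gene Nr1i2 (1.65, 348 CPM in APAP and 126 CPM in the controls). Of 5 redox partners 4 rose, Por by 1.17 and Cyb5b by 1.54 on the log2 scale. Of 16 PXR and CAR targets 6 rose and 1 fell, with Abcc2 at 2.37, Ces2a at 2.14 and Sult1d1 at 2.72. Of 7 other xenobiotic P450 genes, Cyp2c65 (2.43) and Cyp2d26 (2.79) rose and none fell. Among PAR bZip and daily clock genes, Clock (0.76) and Npas2 (2.20) rose and none fell, and the part of this list was not tested.

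In ileum the 3 CYP3A genes rose after APAP too, with 4 members up and 1 down of 5 tested, beside 16.2% of all genes. Cyp3a11 was at 49.3 and 43.4 CPM in the APAP libraries, against 1.13 and 5.602 CPM in Sucrose and 0.931 and 0.348 CPM in Untreated libraries (4.9000 ± 0.897, adjusted p = 8.09e-04). The controls of Cyp3a11 lay under the low-count filter too, so its test in ileum carries the limit given for Cyp2c29 in jejunum. Cyp3a13 was at 348 and 333 CPM in the APAP libraries, against 118 and 145 CPM in Sucrose and 64.9 and 31.3 CPM in Untreated libraries (2.19 ± 0.35, adjusted p = 2.56e-04). Cyp3a25 was at 57.8 and 37.4 CPM in the APAP libraries, against 10.2 and 16.8 CPM in Sucrose and 3.49 and 1.39 CPM in Untreated libraries (3.07 ± 0.56, adjusted p = 7.10e-04). No library overlapped, and leaving out any library kept these 3 calls, but Sucrose alone as the control ended them (adjusted p = 0.0741, 0.0739 and 0.128 in the same order). Cyp2b10 was at 9.63 and 6.03 CPM in the APAP libraries, against 0 and 0 CPM in Sucrose and 0 and 0 CPM in Untreated libraries (adjusted p = 0.00222). On a floor of 3 counts over all controls, that is at least 23.4-fold higher in APAP libraries. This floor rests mostly on the deeper Untreated libraries, so the bound is not one against Sucrose alone. Cyp2b10 was no longer called without APAP replicate 1 (adjusted p = 0.0511), or against Sucrose alone (adjusted p = 0.108). Cyp2e1 was lower, at 102 and 80.8 CPM in the APAP libraries, against 169 and 179 CPM in Sucrose and 172 and 179 CPM in Untreated libraries (-0.83 ± 0.19, adjusted p = 0.001100). The difference was not called without APAP replicate 2 (adjusted p = 0.0601). All 8 enterocyte markers rose in APAP ileum, their sum being 3816 to 5573 CPM, against 1641 to 2919 CPM in Sucrose and 313 to 536 CPM in Untreated libraries. Alb had no count in the APAP libraries. In colon, where Cyp3a13 was the only CYP3A gene tested, it was at 229 and 156 CPM in the APAP libraries, against 65.9 and 69.01 CPM in Sucrose and 69.2 and 66.99 CPM in Untreated libraries (1.51 ± 0.26, adjusted p = 7.33e-04, 8.16% of all genes called), without overlap. This did not pass without APAP replicate 1 (adjusted p = 0.0734). There the enterocyte sum was 386 to 404 CPM in APAP, 293 to 325 CPM in Sucrose and 254 to 283 CPM in Untreated libraries.

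**Figure D3:**
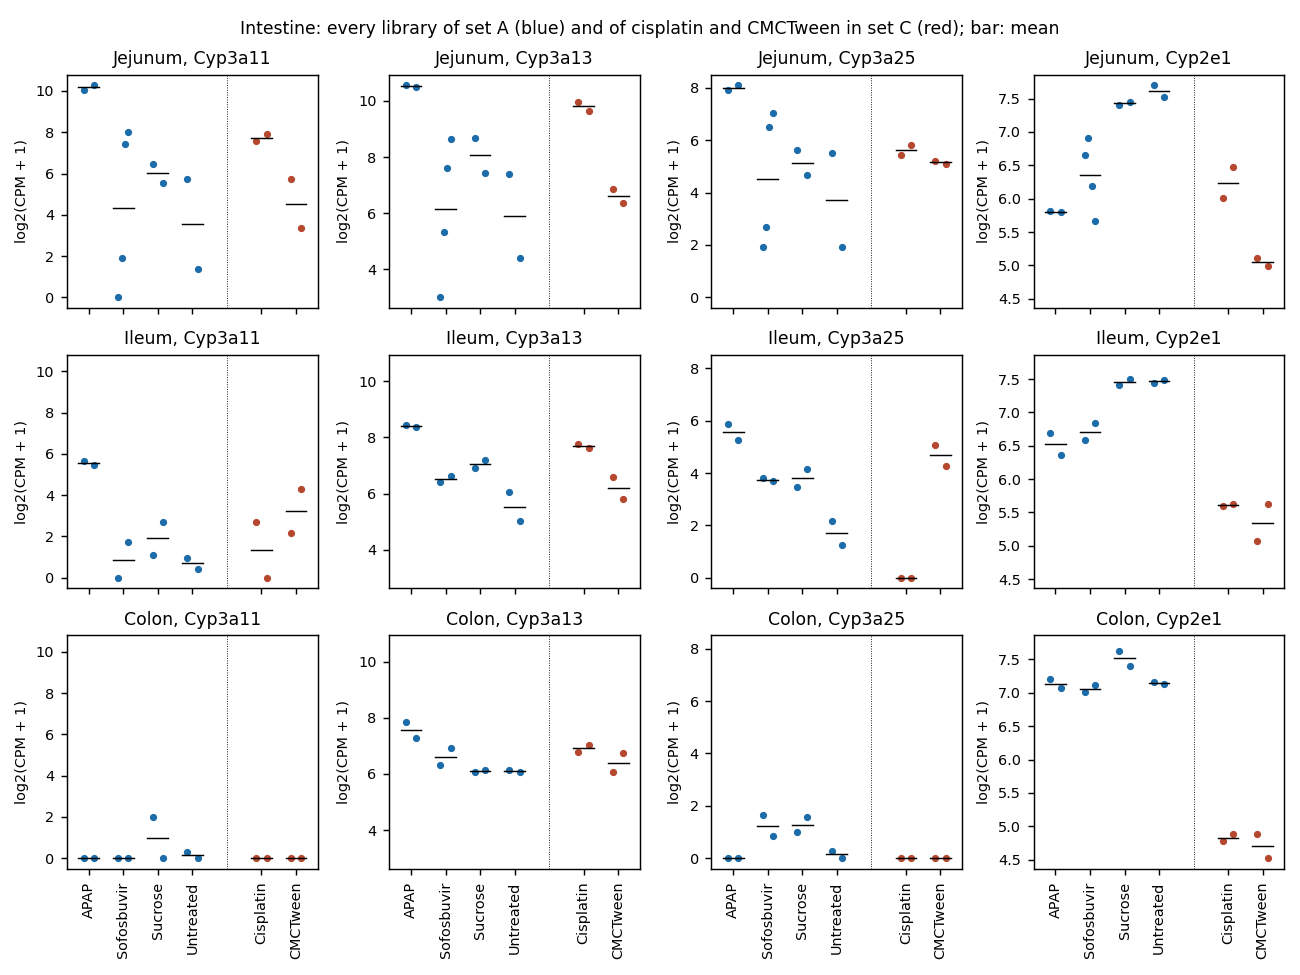
Level of 4 genes (columns) in jejunum, ileum and colon (from top to bottom) in every library as log2(CPM + 1), for set A (blue) and for cisplatin and CMCTween of set C (red), with bars at the means and vertical axes shared within a gene. The APAP libraries are the highest for the 3 CYP3A genes in jejunum and ileum, the Sofosbuvir and Untreated libraries of jejunum are widely spread, and Cyp3a25 is at 0 in both cisplatin ileum libraries.

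Cisplatin, Aripiprazole and Sofosbuvir gave further calls in the gut. In ileum (29.2% of all genes called), Cyp3a13 was at 218 and 198 CPM in the cisplatin libraries, against 95.4 and 55.3 CPM in CMCTween libraries (1.4002 ± 0.48, adjusted p = 0.0351). Significance was lost against the other drugs of set C, with no filter, with a replicate block, with only its own set in the fit or adjusted over all comparisons (adjusted p = 0.0771 to 0.163). Cyp3a25 was at 0 and 0 CPM in the cisplatin libraries, against 32.6 and 18.4 CPM in CMCTween libraries, which is at least 10.2-fold lower (adjusted p = 0.00781, and 0.0531 when adjusted over all comparisons). The enterocyte sums were 2219 to 2289 CPM in cisplatin and 1722 to 1978 CPM in CMCTween ileum, with 2 of the 8 markers down. The adipocyte sums were 321 to 334 CPM in cisplatin and 40.7 to 100.02 CPM in CMCTween ileum; their part was not tested. Aripiprazole ileum (8.06% called) had Cyp3a13 at 241 and 215 CPM, against the same CMCTween libraries (1.79 ± 0.47, adjusted p = 0.0246). The result did not hold against the other drugs of set C, with a replicate block or with only its own set in the fit (adjusted p = 0.0539 to 0.121). Enterocyte sums were 3314 to 4216 CPM in aripiprazole, against 1722 to 1978 CPM in CMCTween libraries. In jejunum, Cyp2e1 was at 63.3 and 87.8 CPM in the cisplatin libraries, against 33.4 and 30.8 CPM in CMCTween libraries (1.22 ± 0.35, adjusted p = 0.0352, 5.54% called). That call was not kept without any 1 of the 4 libraries (adjusted p = 0.0659 to 0.186), or with a replicate block, with DESeq2 or adjusted over all comparisons (adjusted p = 0.0555 to 0.0955). Enterocyte sums there were 12829.9 to 13319.7 CPM in cisplatin and 2237 to 2684 CPM in CMCTween libraries. Cyp3a11 in cisplatin jejunum, at 188 and 242 CPM in cisplatin and 52.1 and 9.12 CPM in CMCTween libraries, did not overlap, but its adjusted p was 0.339. After Sofosbuvir, Cyp2e1 was at 99.3, 119, 72.3 and 49.6 CPM in Sofosbuvir jejunum, against 168 and 174 CPM in Sucrose and 207 and 182 CPM in Untreated libraries. It fell there (-1.09 ± 0.21, adjusted p = 0.00136, 12.6% called), but the adjusted p was 0.117 when only set A was fitted. This call held without Sofosbuvir replicates 3 and 4, the pair with high enterocyte markers. In Sofosbuvir ileum Cyp2e1 fell by 0.78 (log2; adjusted p = 0.0153, 1.69% called). This call was lost without Sucrose replicate 1, Untreated replicate 4 or Sofosbuvir replicate 1 or 2 (adjusted p = 0.0524 to 0.341), or against Sucrose alone (adjusted p = 0.125) or with DESeq2 (adjusted p = 0.05002).

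In kidney, where Cyp2e1 and Cyp2a5 were the members tested, both fell after cisplatin, beside 23% of all genes. Cyp2e1 was at 168 and 304 CPM in the cisplatin libraries, against 1351 and 1447 CPM in CMCTween libraries (-2.67 ± 0.22, adjusted p = 1.31e-08), without overlap and under every alternative run. Cyp2a5 was at 8.04 and 48.5 CPM in the cisplatin libraries, against 93.1 and 139 CPM in CMCTween libraries (-2.22 ± 0.56, adjusted p = 0.00632). Here the cisplatin libraries differed widely from each other. This result did not hold without CMCTween replicate 4 (adjusted p = 0.07102) or Cisplatin replicate 1 (adjusted p = 0.1605). All 7 proximal tubule markers tested fell in the same libraries. The summed level of the 8 listed was 5353 to 8118 CPM in cisplatin and 28329.5 to 30856 CPM in CMCTween kidneys. Lrp2 was at 368 to 534 CPM in cisplatin and 1366 to 1465 CPM in CMCTween kidneys. The part of these markers in the P450 values was not tested. After APAP, Cyp2a5 was at 220.4 and 241 CPM in the APAP libraries, against 159 and 167 CPM in Sucrose and 72.6 and 84.5 CPM in Untreated libraries (0.98 ± 0.304, adjusted p = 0.0353, 14.4% called), which was lost against Sucrose alone, with no filter, with DESeq2 or adjusted over all comparisons (adjusted p = 0.0738 to 0.534). Proximal tubule sums were 22066 to 24962 CPM in APAP, 27491 to 27817 CPM in Sucrose and 28296 to 28792 CPM in Untreated kidneys. Of the 7 markers 4 fell, and their part was not tested. Cyp2e1 in APAP kidney did not pass (-0.29). PAR bZip and daily clock genes differed in the APAP kidneys too. Tef (-1.76), Hlf (-0.67), Per3 (-1.75) and Nr1d2 (-0.77) fell, Nfil3 (3.83) and Clock (0.63) rose, and the others listed did not pass. The part of this list in the P450 values was not tested.

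Outside liver and gut, Cyp2b10 was called in aorta, parotid gland, lung and skin, and its calls in all tissues were 12 up and 2 down. In aorta after cisplatin (4.19% of all genes called) it was at 566 and 621 CPM in the cisplatin libraries, against 34.5 and 70.3 CPM in CMCTween libraries (3.63 ± 0.59, adjusted p = 0.00106), the highest level of this gene in any of the 868 libraries. This held under every alternative run. Endothelial sums were 338 to 535 CPM in cisplatin and 389 to 406 CPM in CMCTween aorta, and club cell sums were 676 to 860.5 CPM in cisplatin and 326 to 439 CPM in CMCTween aorta. The club cell list also holds the acute phase gene Hp and the P450 genes Cyp2f2 and Cyp4b1, so its sum is not specific to club cells. Alb was at 4.58 to 8.33 CPM in cisplatin and 1.12 to 101 CPM in CMCTween aorta. In APAP aorta (6.66% called) it was at 57.6 and 27.2 CPM in the APAP libraries, against 2.84 and 0.759 CPM in Sucrose and 9.84 and 16.1 CPM in Untreated libraries (3.07 ± 0.76, adjusted p = 0.0201). The call did not pass without Sucrose replicate 2 (adjusted p = 0.0883) or Untreated replicate 1 (adjusted p = 0.0669), or against Untreated alone (adjusted p = 0.142). In parotid gland it rose with both drugs. It was at 51.8 and 50.5 CPM in the APAP libraries, against 14.8 and 20.6 CPM in Sucrose and 27.9 and 30.6 CPM in Untreated libraries (1.4995 ± 0.23, adjusted p = 4.37e-06, 7.58% called). With cisplatin it was at 202 and 169 CPM in the cisplatin libraries, against 45.9 and 39.6 CPM in CMCTween libraries (1.78 ± 0.23, adjusted p = 5.10e-08, 6.23% called). Both parotid calls were without overlap and held under every alternative run. Sucrose parotid libraries, at 14.8 and 20.6 CPM in Sucrose and 27.9 and 30.6 CPM in Untreated, were lower (-1.07 ± 0.27, adjusted p = 0.00372, 15.4% called). It was no longer called without Sucrose replicate 1 (adjusted p = 0.194).

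In lung, the tissue with its highest untreated level, Cyp2b10 rose after APAP and in Asenapine libraries and fell in Aripiprazole libraries. It was at 173 and 174 CPM in the APAP libraries, against 104 and 102 CPM in Sucrose and 98.8 and 109 CPM in Untreated libraries (0.69 ± 0.15, adjusted p = 0.00129, 7.62% called), a call that held under every alternative run. Club cell sums, for the bronchiolar cells in which lung P450 enzymes are found, were 19418 to 21244 CPM in APAP, 17595 to 18286 CPM in Sucrose and 19545 to 22817 CPM in Untreated lungs. Of the PAR bZip and clock genes in APAP lungs, Hlf (-2.51), Per3 (-2.01) and Nr1d2 (-0.90) fell. Arntl (2.58), Nfil3 (2.05) and Clock (0.68) rose, the others did not pass, and the part of this list was not tested. Asenapine lungs (5.72% called) had Cyp2b10 at 213 and 248 CPM in Asenapine libraries, against 133 and 192 CPM in Alendronate, 146 and 191 CPM in Lurasidone, 135 and 166 CPM in Olanzapine and 116 and 168 CPM in Risedronate libraries (0.54 ± 0.14, adjusted p = 0.00999). Both asenapine libraries lay above the others. The difference was not called without Asenapine replicate 3 (adjusted p = 0.0535) or Asenapine replicate 4 (adjusted p = 0.293), or with a replicate block (adjusted p = 0.0899). Aripiprazole lungs had it lower, at 154 and 141 CPM in the aripiprazole libraries, against 211 and 211 CPM in CMCTween libraries (-0.61 ± 0.18, adjusted p = 0.0147, 9.76% called). This did not pass with scaling by totals (adjusted p = 0.0573) or with DESeq2 (adjusted p = 0.132). In skin it was at 72.2 and 86.4 CPM in the cisplatin libraries, against 16.4 and 46.1 CPM in CMCTween libraries (1.33 ± 0.298, adjusted p = 0.00198, 15.1% called). Significance was lost without CMCTween replicate 3 (adjusted p = 0.0834). Endothelial sums were 176 to 201 CPM in cisplatin and 64.7 to 82.1 CPM in CMCTween skin. Of 6 skin epithelium markers 3 fell in the same libraries, the keratin genes Krt5 (-1.07), Krt14 (-1.46) and Krt1 (-1.06), and none rose. Their sum was 5901 to 7151 CPM in cisplatin and 5356 to 11675 CPM in CMCTween skin, and the part of either list in the result was not tested. Asenapine skin (77.8 and 68.7 CPM, above the other set B libraries at 19.8 to 60.5 CPM) gave 0.89 ± 0.23, adjusted p = 0.0385 (1.72% called). The result did not hold without Alendronate replicate 1 or Asenapine replicate 3 or 4 (adjusted p = 0.0553 to 0.262), or with a replicate block (adjusted p = 0.426) or without robust prior estimation (adjusted p = 0.0565).

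**Figure D4:**
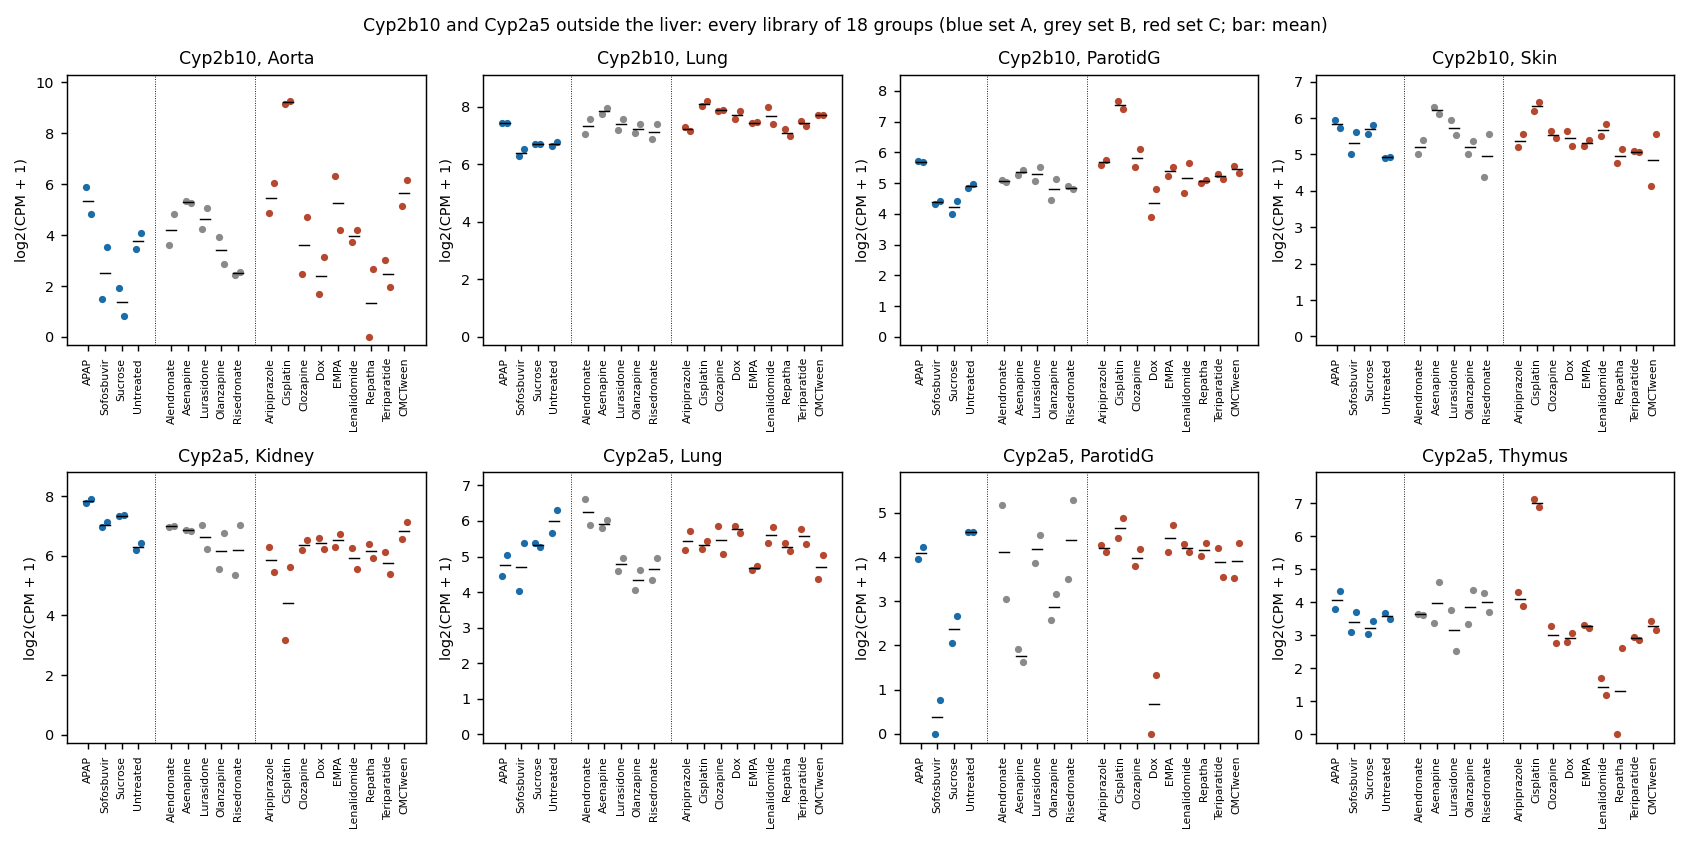
Level of Cyp2b10 (upper panels: aorta, lung, parotid gland and skin) and Cyp2a5 (lower panels: kidney, lung, parotid gland and thymus) in every library as log2(CPM + 1), by treatment, with bars at the means and dotted lines between the sets. Cisplatin aorta and thymus libraries stand above all others of their panels, and Cyp2a5 of parotid gland falls to 0 in single Sofosbuvir and Dox libraries.

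Cyp2a5 had 4 calls up and 7 down over 6 tissues. In thymus after cisplatin (43.8% of all genes called) it rose, at 138 and 116 CPM in the cisplatin libraries, against 9.69 and 7.85 CPM in CMCTween libraries (3.71 ± 0.36, adjusted p = 4.16e-14). Every other thymus library, of whatever set, lay below both cisplatin libraries, and the call held under every alternative run. Sums over marker lists of other cells were higher in the same libraries: the adipocyte sum was 816 to 1043 CPM in cisplatin and 71.04 to 107 CPM in CMCTween thymus. Adipoq was at 27.8 to 37.02 CPM in cisplatin and 3.23 to 6.54 CPM in CMCTween thymus. The club cell sum was 263 to 280.3 CPM in cisplatin and 8.07 to 10.5 CPM in CMCTween thymus, with Scgb1a1 at 3.44 to 16.7 CPM in cisplatin and 1.61 to 2.62 CPM in CMCTween thymus. Scgb1a1 was thus a small part of a sum that also counts Hp, Cyp2f2 and Cyp4b1, so the sum does not show club cells. The part of these lists in the result was not tested. In parotid gland Cyp2a5 was lower in 4 comparisons. Sucrose libraries were at 3.17 and 5.34 CPM and Untreated ones at 22.8 and 22.7 CPM (-2.71 ± 0.58, adjusted p = 0.00177). That call was not kept without Sucrose replicate 1 (adjusted p = 0.0726). Sofosbuvir libraries were at 0 and 0.709 CPM, with 1 count in all. That is 0.0186 of the control level (95% counting interval 0.000471 to 0.104), with an adjusted p of 0.0399 (1.39% called). This call was lost without any 1 of the 6 libraries (adjusted p = 0.0524 to 0.415), or against Sucrose alone (adjusted p = 0.697) or with a replicate block (adjusted p = 0.0893). Dox libraries were at 0 and 1.53 CPM and CMCTween ones at 10.4 and 18.9 CPM. The ratio was 0.06399 (0.00741 to 0.252; adjusted p = 0.0334, 3.3% called). This result did not hold without any 1 of the 4 libraries (adjusted p = 0.0581 to 0.248), or with a replicate block (adjusted p = 0.0588). Asenapine libraries were at 2.76 and 2.096 CPM, below the rest of set B at 4.92 to 37.9 CPM (-2.82 ± 0.73, adjusted p = 0.0102, 9.53% called). The call did not pass without Asenapine replicate 3 (adjusted p = 0.129) or Asenapine replicate 4 (adjusted p = 0.143), or with a replicate block (adjusted p = 0.0603) or with only its own set in the fit (adjusted p = 0.187). Adipocyte sums were 2432 to 2879 CPM in Asenapine parotid glands and 923 to 1572 CPM in the other set B glands, and their part was not tested.

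In lung, Cyp2a5 gave 3 calls in 3 treatments, and all depended on single libraries. It was at 21.02 and 32.2 CPM in the APAP libraries, against 40.95 and 37.3 CPM in Sucrose and 49.3 and 78.9 CPM in Untreated libraries (-0.96 ± 0.29, adjusted p = 0.0331). It was no longer called without APAP replicate 1 or 2, Sucrose replicate 1 or 2 or Untreated replicate 4 (adjusted p = 0.0637 to 0.404), or against Sucrose alone, with scaling by totals, with a replicate block, with only its own set in the fit, with DESeq2 or adjusted over all comparisons (adjusted p = 0.0576 to 0.541). Alendronate libraries, at 96.4 and 58.4 CPM, and Asenapine libraries, at 54.3 and 64.8 CPM, overlapped each other and stood above Lurasidone (23.3 and 30.2 CPM), Olanzapine (15.7 and 23.5 CPM) and Risedronate (19.2 and 30.2 CPM). The alendronate call (1.39 ± 0.25, adjusted p = 0.0254, 0.0344% called) was lost without Alendronate replicate 1, Lurasidone replicate 2 or Olanzapine replicate 1 (adjusted p = 0.0502 to 0.867), or with DESeq2 (adjusted p = 0.0862). The asenapine call (0.88 ± 0.27, adjusted p = 0.0417) was lost without Alendronate replicate 2, Asenapine replicate 3 or 4, Lurasidone replicate 1, Olanzapine replicate 1 or Risedronate replicate 1 (adjusted p = 0.0557 to 0.371), or against the drugs of the other class in set B, with scaling by totals, with a replicate block, with DESeq2 or adjusted over all comparisons (adjusted p = 0.0561 to 0.517).

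Cyp2e1 was tested in all comparisons and called in 28 (11 up and 17 down), and 7 of the calls held under every alternative run. In set A it was mostly lower, with 3 calls up and 15 down. Brain after APAP was at 80.5 and 41.9 CPM, against 122 and 112 CPM in Sucrose and 145 and 134 CPM in Untreated libraries (-1.08 ± 0.16, adjusted p = 6.84e-07, 4.34% called). Thymus after APAP was at 139 and 142 CPM, against 248 and 181 CPM in Sucrose and 297 and 299 CPM in Untreated libraries (-1.06 ± 0.14, adjusted p = 9.27e-09, 25.7% called). In both tissues the APAP libraries lay below every control, and both calls held under every alternative run, as the fall in jejunum did. Smaller falls after APAP were seen in heart (-0.61 ± 0.16, adjusted p = 0.00676, 11.2% called), eye (-0.597 ± 0.14, adjusted p = 0.0107, 1.1% called), skull (-0.53 ± 0.16, adjusted p = 0.0244, 8.95% called) and spleen (-0.52 ± 0.18, adjusted p = 0.04804, 11.6% called). The heart call was lost without APAP replicate 1 (adjusted p = 0.2502), or with DESeq2 (adjusted p = 0.175). The eye call was lost without APAP replicate 1 (adjusted p = 0.2497) or APAP replicate 2 (adjusted p = 0.105), or against Sucrose alone (adjusted p = 0.446) or with DESeq2 (adjusted p = 0.0615). The skull call was lost against Sucrose alone, with scaling by totals, with only its own set in the fit, with DESeq2 or adjusted over all comparisons (adjusted p = 0.0567 to 0.291). The spleen call was lost against Untreated alone, against Sucrose alone, with scaling by totals, with a replicate block, without robust prior estimation, with only its own set in the fit, with DESeq2 or adjusted over all comparisons (adjusted p = 0.0656 to 0.122). WAT and skeletal muscle went up: WAT was at 3766 and 3599.9 CPM in the APAP libraries, against 857 and 1012 CPM in Sucrose and 2266 and 2565 CPM in Untreated libraries (1.31 ± 0.35, adjusted p = 0.0132, 16.4% called). The difference was not called against Untreated alone, with scaling by totals or adjusted over all comparisons (adjusted p = 0.0504 to 0.373). Both APAP libraries of WAT lay above the Untreated ones and the Sucrose libraries far below them. Skeletal muscle was at 100.3 and 229 CPM in the APAP libraries, against 76.6 and 90.03 CPM in Sucrose and 95.2 and 104 CPM in Untreated libraries (0.64 ± 0.1997, adjusted p = 0.0169, 28.3% called), overlapping the controls. Adipocyte sums were 1066 to 3133 CPM in APAP, 633 to 652 CPM in Sucrose and 479.8 to 519 CPM in Untreated muscle, and the part of fat was not tested. This did not pass against Untreated alone, with only its own set in the fit, with DESeq2 or adjusted over all comparisons (adjusted p = 0.0697 to 0.1903).

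Sucrose by itself was set against Untreated in 24 tissues. As a group the Untreated libraries were deeper, as given above. In all Sucrose comparisons, those above included, that difference cannot be told apart from sucrose. Cyp2e1 was lower with Sucrose in 4 tissues and higher in testis. Aorta was at 306 and 262 CPM in Sucrose and 1265 and 1431 CPM in Untreated libraries (-2.302 ± 0.51, adjusted p = 0.0288, 1.41% called). Significance was lost without any 1 of the 4 libraries (adjusted p = 0.0866 to 0.247), or with a replicate block (adjusted p = 0.108). Pancreas was at 37.2 and 34.9 CPM in Sucrose and 78.6 and 60.6 CPM in Untreated libraries (-1.28 ± 0.31, adjusted p = 0.002004, 18.5% called). The result did not hold with DESeq2 (adjusted p = 0.111). Skin was at 165 and 179.8 CPM in Sucrose and 283 and 326 CPM in Untreated libraries (-0.89 ± 0.29, adjusted p = 0.0465, 11.7% called). That call was not kept with scaling by totals, with a replicate block, with DESeq2 or adjusted over all comparisons (adjusted p = 0.05102 to 0.119). Adipocyte sums were 512 to 824 CPM in Sucrose and 1737 to 1872 CPM in Untreated skin. Thymus gave -0.56 ± 0.14, adjusted p = 0.00206 (17.7% called). This call was lost without Sucrose replicate 2 (adjusted p = 0.127). Testis gave 0.47 ± 0.13, adjusted p = 0.0109 (9.17% called). This result did not hold without Sucrose replicate 2 (adjusted p = 0.255) or Untreated replicate 2 (adjusted p = 0.129), or with no filter (adjusted p = 0.0649) or with DESeq2 (adjusted p = 0.0665).

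**Figure D5:**
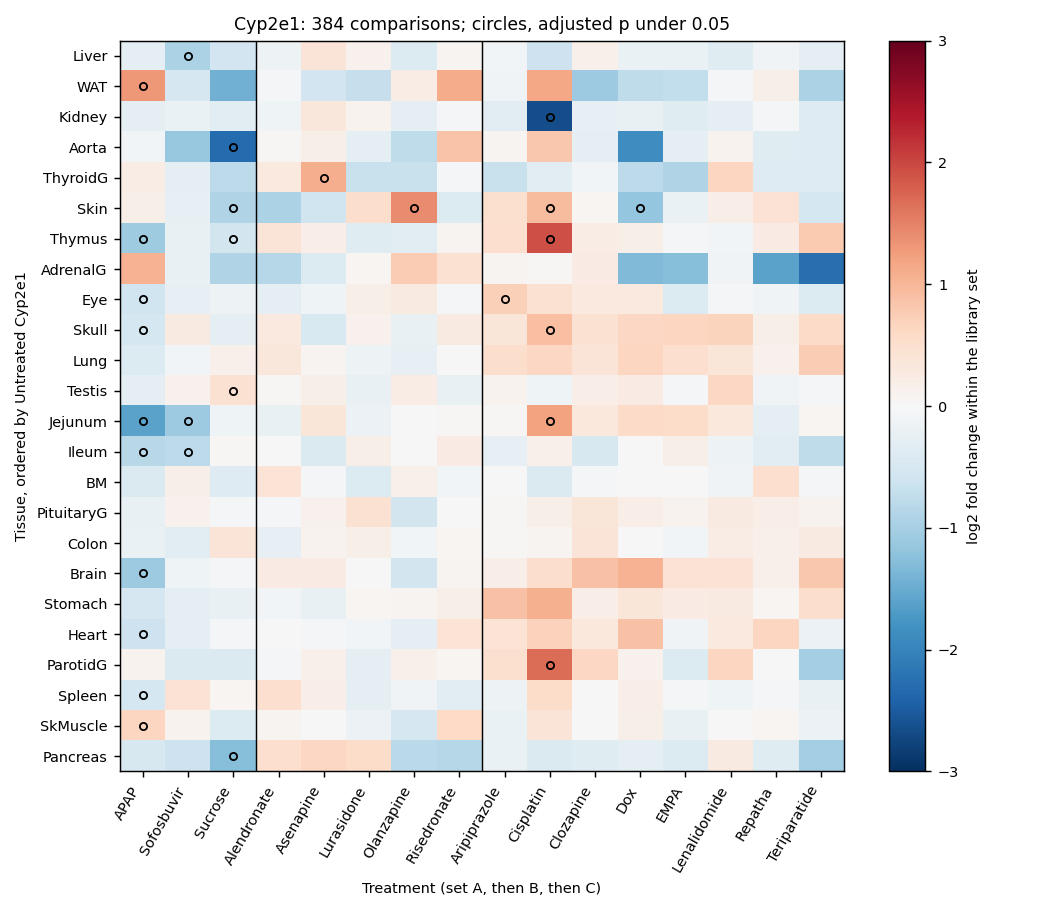
Log2 fold change of Cyp2e1 within its library set (colour) for 16 treatments (columns) in 24 tissues (rows, ordered by the Untreated level), with circles where the adjusted p was under 0.05. The APAP column has more blue circled cells than any other, and cisplatin has the darkest blue cell in kidney and the darkest red in thymus.

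After cisplatin Cyp2e1 was higher in thymus, parotid gland, skull and skin. Thymus was at 139 and 145 CPM in the cisplatin libraries, against 35.5 and 32.7 CPM in CMCTween libraries (1.94 ± 0.202, adjusted p = 5.71e-13). Parotid gland was at 157 and 104 CPM in the cisplatin libraries, against 35.5 and 28.3 CPM in CMCTween libraries (1.68 ± 0.26, adjusted p = 6.32e-06). Neither overlapped, and both calls held under every alternative run. The adipocyte sum of parotid gland was 1615 to 2089 CPM in cisplatin and 738 to 1044 CPM in CMCTween libraries, beside the thymus values above, and its part was not tested. Skull was at 63.2 and 64.6 CPM in the cisplatin libraries, against 31.8 and 36.7 CPM in CMCTween libraries (0.91 ± 0.24, adjusted p = 0.00894, 9.33% called). The call did not pass without CMCTween replicate 3 or 4 or Cisplatin replicate 3 (adjusted p = 0.0708 to 0.0871), or with DESeq2 (adjusted p = 0.0623). Adipocyte sums were 574 to 714 CPM in cisplatin and 178 to 319.9 CPM in CMCTween skull. Cisplatin skin overlapped its controls (322 and 160.3 CPM in cisplatin and 87.5 and 165 CPM in CMCTween libraries, 0.95 ± 0.31, adjusted p = 0.0375). It was no longer called without CMCTween replicate 3 (adjusted p = 0.363) or Cisplatin replicate 1 (adjusted p = 0.642), or with a replicate block, with only its own set in the fit or adjusted over all comparisons (adjusted p = 0.102 to 0.124). These are the cisplatin libraries in which endothelial markers were higher and keratin genes fell; adipocyte sums were 1540.1 to 1642 CPM in cisplatin and 1543 to 2387 CPM in CMCTween skin. Dox skin was lower, at 59.7 and 53.8 CPM (-1.16 ± 0.34, adjusted p = 0.0326, 10.1% called). The difference was not called without CMCTween replicate 4 (adjusted p = 0.278), or with only its own set in the fit (adjusted p = 0.0852) or adjusted over all comparisons (adjusted p = 0.0764). Adipocyte sums there were 105 to 307 CPM in Dox and 1543 to 2387 CPM in CMCTween skin, and skin epithelium sums 17112 to 18789 CPM in Dox and 5356 to 11675 CPM in CMCTween skin. Olanzapine skin was higher, at 189 and 209 CPM in Olanzapine libraries, against 39.2 and 74.2 CPM in Alendronate, 68.7 and 71.4 CPM in Asenapine, 139 and 112 CPM in Lurasidone and 92.2 and 71.6 CPM in Risedronate libraries (1.42 ± 0.25, adjusted p = 5.57e-04, 10.4% called), without overlap and under every alternative run. Adipocyte sums were 1323 to 1549 CPM in Olanzapine skin and, in the other set B groups, 176 to 1923 CPM. Asenapine thyroid gland (1.09 ± 0.33, adjusted p = 0.0477, 8.75% called) and aripiprazole eye (0.72 ± 0.2002, adjusted p = 0.02997, 2.82% called) complete the Cyp2e1 calls. The thyroid call was lost against the drugs of the other class in set B, with a replicate block or adjusted over all comparisons (adjusted p = 0.103 to 0.461). The aripiprazole eye call was lost with scaling by totals, with only its own set in the fit or with DESeq2 (adjusted p = 0.0599 to 0.2004).

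In adrenal gland, genes that untreated mice expressed in liver had counts in 2 drug groups and none in CMCTween. Aripiprazole adrenals (3.85% of all genes called) had Cyp3a11 at 29.8 and 10.4 CPM, Cyp1a2 at 21.1 and 8.34 CPM and Cyp2c29 at 26.3 and 5.21 CPM, against no count in either CMCTween library. Clozapine adrenals (4.65% called) had Cyp3a11 at 23.2 and 7.68 CPM and Cyp1a2 at 27.2 and 6.98 CPM, against no count in either CMCTween library. On a floor of 3 counts over the CMCTween group, these are at least 11.02-fold, 8.16-fold and 8.16-fold higher for aripiprazole and 9.76-fold and 10.8-fold higher for clozapine. Hepatocyte markers moved with them: the sum of 11 genes was 529 to 1616 CPM in aripiprazole and 515 to 1821 CPM in clozapine adrenals, with none at 0, against 135 to 192 CPM in CMCTween adrenals, with 4 at 0. Alb was at 155 to 551 CPM in aripiprazole and 122 to 624 CPM in clozapine adrenals, against 0.989 to 1.16 CPM in CMCTween adrenals. In each drug group the library with the higher Alb level also had the higher P450 levels. The part of liver RNA in these values was not tested. With no count in CMCTween, these P450 genes passed the low-count filter only through libraries of other groups, which can include these drug groups. Their tests are therefore no separate evidence of a response. All 5 calls depended on single libraries. For aripiprazole, Cyp3a11 was lost without CMCTween replicate 3 (adjusted p = 0.08201) or Aripiprazole replicate 2 (adjusted p = 0.0688). Cyp1a2 was lost without CMCTween replicate 3 or 4 or Aripiprazole replicate 2 (adjusted p = 0.122 to 0.1901). Cyp2c29 was lost without CMCTween replicate 3 or 4 or Aripiprazole replicate 2 (adjusted p = 0.175 to 0.303), or without robust prior estimation, with only its own set in the fit or adjusted over all comparisons (adjusted p = 0.0588 to 0.114). For clozapine, Cyp3a11 was lost without CMCTween replicate 3 or 4 or Clozapine replicate 3 (adjusted p = 0.0645 to 0.126). Cyp1a2 was lost there without CMCTween replicate 3 or 4 or Clozapine replicate 3 (adjusted p = 0.0823 to 0.201).

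EMPA, Lenalidomide, Lurasidone, Repatha, Risedronate and Teriparatide gave no member call with edgeR in 360 tests, beside 1.06% of all gene tests of these drugs. At an unadjusted p under 0.05 there were 48, and DESeq2 called 3 of the 256 it tested (2 for Repatha and 1 for Teriparatide). Cyp1a1 passed the filter in 2 tissues, lung and skin, and was called in 0 of 32 tests with edgeR, beside 3.78% of all gene tests there, with 2 at an unadjusted p under 0.05 and 0 called by DESeq2. A missed threshold does not show that these levels were alike: in liver the standard errors of EMPA on the log2 scale were 0.20 to 0.66 over the 8 members tested.

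Whether a treatment acted differently on a member in liver than in jejunum or kidney was tested with an interaction term, in fits that hold the libraries of liver and the other tissue together. For APAP in liver minus jejunum (9.2% of all genes called), Cyp2c29 (-6.08 ± 0.91, adjusted p = 2.21e-05), Cyp3a11 (-4.84 ± 1.25, adjusted p = 0.00989), Cyp3a25 (-2.93 ± 0.95, adjusted p = 0.0436) and Cyp2e1 (1.13 ± 0.35, adjusted p = 0.0291) differed. Cyp2c29 went down in liver and up in jejunum with the same drug, and Cyp2e1 fell in jejunum and did not pass in liver. The Cyp3a25 difference was lost with RLE scaling (adjusted p = 0.0659) and the Cyp2e1 difference with no filter (adjusted p = 0.0506). For Cisplatin in liver minus jejunum (1.96% called), Cyp2e1 differed (-1.89 ± 0.43, adjusted p = 0.00689). In liver minus kidney, Cyp2a5 differed for APAP (-3.07 ± 0.48, adjusted p = 5.38e-05, 3.34% called) and Cyp2e1 for Cisplatin (2.04 ± 0.32, adjusted p = 2.34e-05, 7.06% called). These 7 were the ones that passed of 256 tests of 8 genes, and Cyp3a13 was not among them: its APAP responses in liver and jejunum differed by -2.43 ± 0.93, adjusted p = 0.0967. Shares of all genes are given only for the comparisons with a member difference. Whether members differed more often than other genes over all 256 tests is therefore not shown. The APAP differences were not refitted with Sucrose alone as the control. Against it, the edgeR calls of Cyp2c29, Cyp3a11 and Cyp3a25 in jejunum and Cyp2a5 in kidney were lost (adjusted p = 0.0984, 0.0978, 0.131 and 0.534).

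Genes of like pattern were ranked by Pearson's r of log2(CPM + 1) as a description. Over the 24 Untreated tissue means, whose points share the depth of their libraries, Cyp3a13 was most like Ces2a (0.9303), Ugt2b35 (0.925) and the receptor gene Nr1i2 (0.9205). Cyp3a11 was most like Ugt2b36 (0.984), Cyp3a25 like Leap2 (0.982), Cyp2c29 like Mup21 (0.996) and Cyp1a2 like Hsd3b5 (0.999). The closest genes were less close for Cyp2e1 (Hacl1, 0.935), Cyp2a5 (Acsm1, 0.859), Cyp1a1 (Sptlc3, 0.7498) and Cyp2b10 (the surfactant protein gene Sftpd, 0.732). Over the 36 liver libraries, centred within each set, Cyp2c29 was most like Inmt (0.956), Cyp1a2 like Fabp1 (0.943), Cyp3a11 like Etnppl (0.929) and Cyp3a13 like Hp (0.912) and Lbp (0.872), both acute phase genes. Among the members themselves, Cyp1a2 and Cyp2c29 had an r of 0.887, Cyp3a11 and Cyp1a2 0.792, Cyp3a13 and Cyp1a2 -0.818 and Cyp3a13 and Cyp3a11 -0.623. The 36 points are 18 groups of 2 libraries, so points of 1 group share a treatment.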

How the data were processed

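The deposited tables hold raw counts of reads per gene symbol and library, made by the authors with bcl2fastq 2.17, TopHat2 2.1.1 and HTSeq 0.9.1 on mm10, per the submitters' processing notes; counting settings and annotation are not given in the sources used here. The 9 members and the gene lists were chosen with earlier results of these data known. Libraries were grouped by treatment and tissue from their labels, and the 3 library sets come from expression values. In each tissue all 18 groups were fitted together with edgeR 4.0.16 (limma 3.58.1, R 4.3.3): filterByExpr with a minimum count of 10, TMM scaling, robust quasi-likelihood F tests and Benjamini-Hochberg adjustment over all genes of a comparison at 0.05. Standard errors are the absolute log2 fold change divided by the square root of F. Depth, at 451154 to 12811780 counts, limits low genes such as Cyp1a1. Alternatives were DESeq2 1.42.0, RLE scaling, scaling by totals, no filter, other controls, a fit of 1 set, a replicate block and leaving out libraries. Named genes are the members, list genes that passed in a comparison described and a few that did not, and for each member the 3 genes with the highest Pearson correlation, of which the text gives 1 to 3.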

Additional observations from a re-analysis of the deposited data

Results flagged for a closer look

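In 7 cases the response of a member in liver differed from that in another tissue by edgeR's interaction test, and the size is the log2 fold change in liver minus that in the other tissue. These cases were 5 of 128 tests with jejunum and 2 of 128 with kidney, and no share of all genes over the same tests is given. For APAP in liver and jejunum, Cyp2c29 differed by -6.08 ± 0.91 (adjusted p = 2.21e-05), with -1.29 in liver and 4.63 in jejunum. Cyp3a11 differed by -4.84 ± 1.25 (adjusted p = 0.00989), with 0.24 in liver and 4.88 in jejunum, and Cyp3a25 by -2.93 ± 0.95 (adjusted p = 0.0436), with 0.51 and 3.24. The enterocyte markers given above moved with the jejunum side of these 3 differences, and their part was not tested. Against Sucrose alone the jejunum calls of these 3 genes were lost, and the differences were not refitted with that control. Cyp2e1 differed by 1.13 ± 0.35 (adjusted p = 0.0291), with -0.28 in liver and -1.60 in jejunum. For cisplatin, Cyp2e1 differed by -1.89 ± 0.43 (adjusted p = 0.00689) between liver and jejunum, with -0.62 in liver and 1.22 in jejunum, and by 2.04 ± 0.32 (adjusted p = 2.34e-05) between liver and kidney, with -0.62 in liver and -2.67 in kidney, where proximal tubule markers fell too. For APAP, Cyp2a5 differed by -3.07 ± 0.48 (adjusted p = 5.38e-05) between liver and kidney, with -2.10 in liver and 0.98 in kidney. Against Sucrose alone the kidney call of Cyp2a5 was lost (0.52, adjusted p = 0.534), and this difference was not refitted with that control. In the 2 groups with 4 libraries, Asenapine brain and Sofosbuvir jejunum, 7 combinations of a member and a group were tested for a single library apart from the others, and none had one. Such a test cannot find a split of 2 libraries against 2, as Cyp3a11 had in Sofosbuvir jejunum.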

How the results depend on the processing

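Of the 77 calls none reversed under any alternative run, 21 held under all of them, and 31 held under all other than leaving out a library. Of 65 calls refitted without single libraries (2 series of 100 refits, the second added after the data were seen), 28 held throughout and 37 were lost at least once; the other 12 were not refitted. RLE scaling kept 77 calls, scaling by totals 68, no filter 74, the fit without the robust prior (added after the data were seen) 74 and adjustment over all comparisons 60; DESeq2 kept 49 and lost 17. As counts of member calls, set A gave 42 in 24 tissues, of which 8 were Sucrose against Untreated. Against Sucrose alone, which was run for APAP and Sofosbuvir only, the count was 27, so the 2 counts cover unlike comparisons. Of the APAP and Sofosbuvir calls of the main fit, that control kept 17 and lost 17. In liver set A gave 8, and 13 with only the set in the fit. In jejunum it gave 6, but 2 against Sucrose alone, 13 with no filter and 2 with only the set. Set B gave 8 in 24 tissues, but 41 with no filter, 2 with a replicate block and 17 with only the set; 1 in liver, but 4, 0 and 2 under those, 0 with DESeq2 and 2 with adjustment over all comparisons. Its jejunum gave 0 with edgeR in 30 tests (1 at an unadjusted p under 0.05, 0 with DESeq2), but 17 with no filter and 3 with only the set. Set C gave 27 in 24 tissues and 64 with no filter; 1 in jejunum, but 31 with no filter, 0 with a replicate block, 2 with only the set, 2 with DESeq2, 5 without sofosbuvir replicates 3 and 4 and 0 with adjustment over all comparisons. The 7 tissue differences became 53 with no filter. No filter lets genes with few counts in; the other causes were not tested. Leaving out libraries gave 5 to 8 calls in set A liver (5 without Untreated replicate 2), 0 to 1 in set B liver and 0 to 1 in set C jejunum (0 without CMCTween replicate 3 or 4 or Cisplatin replicate 1 or 3). Liver contrasts of the Untreated libraries numbered 164 and ranged between 147 (DESeq2) and 178; they were refitted without a library in 4 of 24 tissues, and the tissue differences in none. Library numbers shared between groups were not taken as a pairing: over 420 group pairs the deviations had a median r of 0.0252 (-0.469 to 0.352), with 57 over 0.1 and 15 under -0.1, and a replicate block kept 61 of 77 calls. All 6 Asenapine calls were among those lost with the block, and there drug and library number cannot be told apart. With 2 libraries a group, the depth limits what can be called for low genes.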
